A study of Mus musculus with 15 samples.

Results

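The 83 genes described here encode the proteins of the cytosolic ribosome and their close paralogs. They were picked from the 24030 gene symbols of the count table by name: symbols of the form Rpl or Rps followed by a number, plus Rpsa, Rplp0, Rplp1 and Rplp2, with the Rps6 kinases and pseudogene symbols left out. The set holds 50 proteins of the large (60S) subunit and 33 of the small (40S) subunit. Of these, 77 are core subunits and 6 are paralogs of a core subunit (Rpl3l, Rpl7l1, Rpl22l1, Rpl39l, Rps27l and Rps4l). All 83 had enough counts to be tested among 15083 genes. The rule used names only.

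The tissue was brown adipose tissue (BAT), the fat depot of the mouse that burns fuel to make heat, profiled by bulk RNA sequencing in 15 libraries. Mice with a BAT-specific knockout of DJ-1, the redox-sensitive protein encoded by Park7 (the groups called KO here), were set against mice that carried the flox genotype and are labelled WT. Both genotypes were kept for 8 weeks at room temperature, which is cool for mice, or at 29 °C, near their thermoneutral zone. There were 4 WT and 4 KO libraries at room temperature, and 4 WT and 3 KO libraries at 29 °C. The promoter that drove the recombinase and the age and sex of the mice are not given in the sources used here. The labels call the replicates separate samples and do not say that each came from a separate mouse, so each p-value rests on the spread among these libraries, which may be technical.

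Library totals ran from 23977448 to 38800967 counts, the deepest being KO at 29 °C replicate 1. Levels below are CPM (counts scaled to a common library size) after scaling of the libraries by TMM (trimmed mean of M-values). Effects are log2 fold changes ± SE from 1 edgeR quasi-likelihood model of the 4 groups, and a gene was called, or said to rise or fall, at an adjusted p under 0.05 (Benjamini-Hochberg over all genes tested). Park7 itself stood at 110 ± 1.65 CPM in WT and at 28.2 ± 4.03 CPM in KO at room temperature (SD, n = 4 and 4), and 118 ± 11 and 31.7 ± 5.46 CPM at 29 °C (SD, n = 4 and 3), so no library went against its label. Each of 12 brown adipocyte markers had counts in every library, as did all markers of endothelial cells, macrophages, lymphocytes and Schwann cells. Skeletal muscle transcripts stood out in 3 libraries at 29 °C: the summed level of 16 muscle markers was 1830 CPM in WT replicate 2, 699 CPM in KO replicate 2 and 2200 CPM in KO replicate 3, against 34.7 to 64.2 CPM in the other 12.

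Each ribosome holds a single copy of nearly every core ribosomal protein, so the genes for these proteins are transcribed in concert and their mRNAs are among the most abundant in a cell. In mammals many of these mRNAs begin with a terminal oligopyrimidine (TOP) tract, a run of C and T bases at the very 5′ end, through which mTORC1 and the RNA-binding protein LARP1 govern their translation and stability. The ribosomal proteins are imported into the nucleus, assembled with ribosomal RNA, and exported as subunits. Brown fat is best known for mitochondrial heat production, and its cytosolic ribosomes supply most of the proteins that this machinery needs.

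The 82 members with a gene model (Rps4l had none) lay on 19 chromosomes, 4 of them on X, so no cluster of neighbouring genes makes up the set. Ribosomal protein genes have many processed copies in the mouse genome, and reads that fit a gene and its copy equally well are divided between them by an estimate. Of the symbols with a pseudogene or retrogene suffix, 14 were left out by the rule and 10 of these passed the filter on low counts. The highest of them, Rpl37rt, reached 5.08 ± 0.743 CPM in WT at 29 °C (SD, n = 4). The split between a gene and its unlisted copies is uncertain for every member.

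The start sites of the genes that the results turn on are shown because the TOP tract is read from them. RefSeq's promoter table (GRCm38.p6) held 62 of the 83 members, with 74 starts. Each line gives 45 bases before the RefSeq start and 15 bases from the start onward, 5′ to 3′ on the gene's strand, with the longest run of pyrimidines in that window in capitals. Where a gene had several starts, the one with the longest run is shown. The first set holds genes whose levels were lower in KO than in WT at 29 °C.
Rpl38: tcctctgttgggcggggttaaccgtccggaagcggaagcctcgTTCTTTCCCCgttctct
Rps21: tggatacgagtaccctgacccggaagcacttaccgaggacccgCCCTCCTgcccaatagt
Rplp2: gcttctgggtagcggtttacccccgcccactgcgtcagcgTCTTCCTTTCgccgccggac
Rpl35a: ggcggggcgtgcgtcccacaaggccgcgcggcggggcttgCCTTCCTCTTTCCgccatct
The second set holds Rps6 and Rps10, which rose with warmth in both genotypes.
Rps6: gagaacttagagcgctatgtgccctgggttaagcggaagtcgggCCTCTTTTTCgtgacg
Rps10: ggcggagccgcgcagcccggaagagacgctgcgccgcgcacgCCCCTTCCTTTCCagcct
Another set holds genes whose levels were higher in KO than in WT at 29 °C.
Rpl15: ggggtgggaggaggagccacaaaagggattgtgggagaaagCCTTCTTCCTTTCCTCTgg
Rpl7a: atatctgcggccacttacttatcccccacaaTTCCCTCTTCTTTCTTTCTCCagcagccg
The last set holds 3 paralogs.
Rpl7l1: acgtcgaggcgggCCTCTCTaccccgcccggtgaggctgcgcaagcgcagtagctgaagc
Rps27l: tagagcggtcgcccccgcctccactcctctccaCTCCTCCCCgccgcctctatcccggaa
Rpl3l: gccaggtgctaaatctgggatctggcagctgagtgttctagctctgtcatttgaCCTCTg

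These windows lie at chr11:114668535-114668594 (plus strand), chr2:180257334-180257393 (plus), chr7:141447606-141447665 (plus), chr16:33056437-33056496 (plus), chr4:86857353-86857412 (minus), chr17:27635230-27635289 (minus), chr14:18270972-18271031 (minus), chr2:26910762-26910821 (plus), chr17:46782642-46782701 (minus), chr9:66946041-66946100 (plus) and chr17:24727781-24727840 (plus). In Rpl38 a run of 10 pyrimidines crossed the start, and in Rpl7a a run of 21 did. Rpl7l1 and Rpl3l had no run longer than 7 in the window, and those they had did not touch the start. A run of at least 8 pyrimidines (C or T) on the sense strand within 25 bases of the start was present at 34 of the 74 member starts, or 45.9%, against 19.7% of all 32851 starts in the table. On the other strand, searched for the same run of C or T, the shares were 8.11% and 21.6%. Over the whole window of 250 bases before to 50 after the start, the letters CCGGAAG, the core of a site read by ETS family factors, stood on either strand at 36.5% of member starts and 8.86% of all starts. The letters GCCATNTT, part of the site of the factor YY1, stood at 23.0% and 6.05%. These matches describe the sequences and are not shown to be sites.

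The share of each library taken by the 83 genes was compared first. At room temperature it was 1.332%, 1.231%, 1.371% and 1.364% in the 4 WT libraries and 1.321%, 1.233%, 1.411% and 1.313% in the 4 KO libraries. At 29 °C it was 2.586%, 2.62%, 3.161% and 2.343% in WT and 2.484%, 2.245% and 2.222% in KO. Every library at 29 °C thus stood above every library at room temperature, while the genotypes overlapped at each temperature. The means were 1.32% ± 0.0646 and 1.32% ± 0.0728 at room temperature and 2.68% ± 0.345 and 2.32% ± 0.145 at 29 °C for WT and KO (SD, n = 4, 4, 4 and 3). The mitochondrially encoded transcripts made up 30.2% to 41.6% of a library in WT at 29 °C and 22.7% to 27.4% elsewhere. With these transcripts left out of the total, the shares were 1.80% ± 0.108 and 1.73% ± 0.114 at room temperature and 4.06% ± 0.323 and 3.15% ± 0.202 at 29 °C, and the 2 genotypes at 29 °C no longer overlapped (3.785% to 4.527% in WT, 3.023% to 3.382% in KO). No test was made on these shares.

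**Figure D1:**
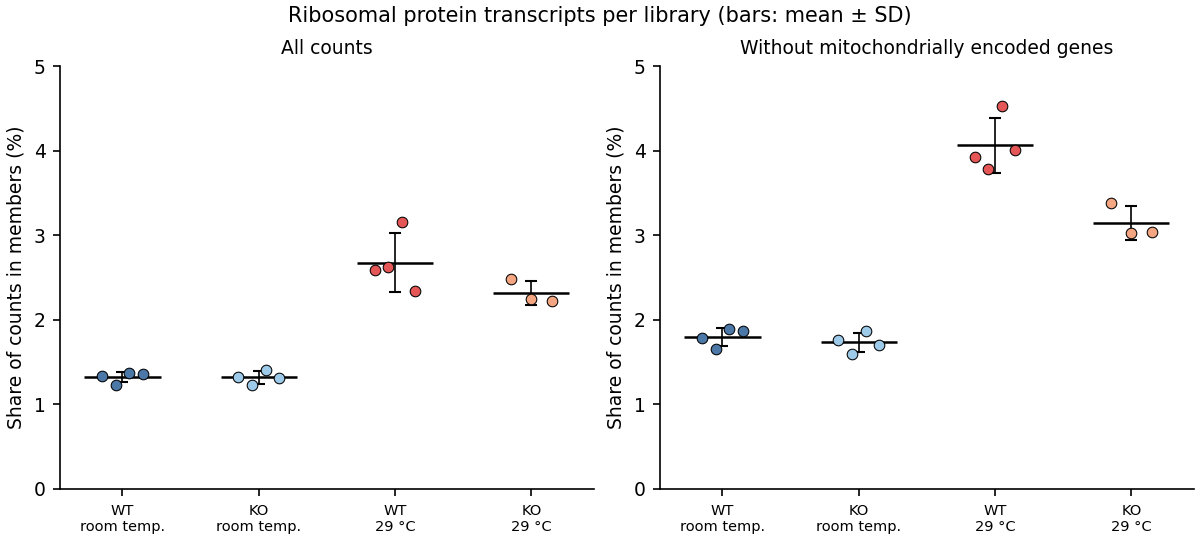
The share of counts in the 83 ribosomal protein genes is plotted per library (points; bars are the mean ± SD of each group, n = 4, 4, 4 and 3) as a percentage of all counts on the left and of counts without mitochondrially encoded genes on the right. All 7 libraries at 29 °C lie above all 8 at room temperature, and in the right panel WT at 29 °C lies above KO at 29 °C.

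The genes of the 2 subunits did not keep the same proportion. The summed counts of the large-subunit genes were 1.44 ± 0.00957 and 1.46 ± 0.005 times those of the small-subunit genes in WT and KO at room temperature, and 1.35 ± 0.0126 and 1.35 ± 0.01 times at 29 °C (SD, n = 4, 4, 4 and 3), with no overlap between the temperatures. Within a group many members had their highest or lowest level in the same library, to a degree that differed between groups. The same counts were not made over all genes. KO at 29 °C replicate 1 had the highest level of its group for 80 of the 83 genes, and KO at 29 °C replicate 3 had the lowest for 67. In the same way WT at 29 °C replicate 3 was highest for 65 and replicate 2 lowest for 49, and WT at room temperature replicate 2 was lowest for 63. The members were more divided in KO at room temperature, where replicate 1 was highest for 41 and replicate 2 lowest for 45. At 29 °C WT replicate 2 and KO replicate 3 are among the 3 libraries with muscle transcripts. The part of muscle content in this order was not tested. The median coefficient of variation of a member within a group was 6.31% (WT) and 5.54% (KO) at room temperature and 8.91% and 11% at 29 °C, against 10.9%, 13.5%, 16.3% and 14% over all genes tested.

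Warm housing was compared with room temperature in the control mice to ask what relief from cold did to these genes. In WT brown fat 75 of the 83 ribosomal protein genes rose at 29 °C and 3 fell, against 35.9% and 32.8% of all genes tested (68.8% in either direction). The median member had a log2 fold change of 0.726, or 1.65-fold, while the median over all genes tested was 0.0633. The rise passed 1.5-fold for 55 members, while 51.3% of all genes were called past 1.5-fold in either direction. Of the 83 members 78 had no overlap between the 2 groups, as did 62.6% of all genes. It reached 45 of 50 large-subunit genes (median 0.702) and 30 of 33 small-subunit genes (median 0.817). In bulk tissue, a larger share of cells rich in these mRNAs and more mRNA per cell cannot be told apart.

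Apart from the paralog Rpl3l, described further on, the 3 largest rises in WT were in small-subunit genes. Rps20, a protein of the head of the 40S subunit whose gene lies on chromosome 4 at 3831334 to 3835665 (GRCm38), measured 96.3, 93.2, 112 and 107 CPM at room temperature and 273, 251, 322 and 275 CPM at 29 °C. The lowest warm library stood more than 2-fold above the highest cool one. Its log2 fold change was 1.46 ± 0.099 (2.75-fold, adjusted p = 3.92e-09). Rps21, a small protein of the 40S body, measured 70, 72.5, 74.3 and 78.7 CPM at room temperature and 199, 182, 273 and 214 CPM at 29 °C. Its log2 fold change of 1.55 ± 0.12 (adjusted p = 1.67e-08) was the larger of the pair, and WT replicate 3 was its highest warm library. Rps12, which binds the 40S head near the beak, measured 132, 132, 158 and 154 CPM and then 348, 335, 417 and 369 CPM. The groups lay apart and the log2 fold change was 1.35 ± 0.10 (adjusted p = 1.22e-08). Rps29, a zinc-binding protein of the head, had 106 ± 5.72 CPM in the cool and 241 ± 27 CPM in the warm group (SD, n = 4 and 4), and its log2 fold change was 1.19 ± 0.11 (adjusted p = 6.83e-08).

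In the large subunit the rise in WT was led by Rpl38, a small surface protein known for its part in translating Hox mRNAs in the embryo, whose gene lies on chromosome 11 at 114668524 to 114672331. It measured 61.8, 59.5, 77.1 and 70.9 CPM at room temperature and 162, 132, 197 and 168 CPM at 29 °C. The groups did not overlap, and the log2 fold change was 1.29 ± 0.13 (adjusted p = 2.11e-07). The proteins of the stalk, which recruits the elongation factors, rose in unequal measure. Rplp0, the stalk base, had a log2 fold change of 0.57 ± 0.079, Rplp1 of 1.04 ± 0.11 and Rplp2 of 0.73 ± 0.13 (adjusted p at most 8.18e-05). Rpl5 and Rpl11, which carry the 5S ribosomal RNA and also bind MDM2, the brake on p53, rose by 0.81 and 0.31 on the log2 scale. Rpl4, which lines the exit tunnel, rose by 0.44, and Rpl13a, which also takes part in translational silencing after interferon, by 0.70.

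Other small-subunit genes with well-known roles rose in WT as well. The log2 fold change was 0.73 ± 0.079 for Rps6, the classical substrate of S6 kinase, and 0.76 ± 0.094 for Rps27a, which is made as a fusion with ubiquitin. It was 0.56 ± 0.08 for Rps3, at the mRNA entry, 0.45 ± 0.098 for Rpsa, also known as the laminin receptor, and 0.46 ± 0.099 for Rps19, the gene most often mutated in Diamond-Blackfan anaemia. All 5 passed the test (adjusted p from 5.73e-07 to 0.000683).

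Only 3 members fell in WT and 5 did not pass the test. Rpl15, a large-subunit core protein, measured 207, 199, 214 and 222 CPM at room temperature and 173, 169, 169 and 182 CPM at 29 °C. All 4 warm libraries were below the 4 cool ones (log2 fold change -0.28 ± 0.078, adjusted p = 0.00452). Rpl23a, which sits at the tunnel exit where nascent chains emerge, measured 400.0, 382, 419 and 419 CPM and then 319.8, 318, 326 and 347 CPM (-0.31 ± 0.089, adjusted p = 0.00615), again with no overlap. The other was the paralog Rpl7l1, described below with the other paralogs. Of those not called, Rps2 measured 783 ± 46.5 CPM at room temperature and 771 ± 35.7 CPM at 29 °C (SD, n = 4 and 4; log2 fold change -0.022 ± 0.091, adjusted p = 0.835). Rpl7a had a log2 fold change of 0.16 ± 0.079 (adjusted p = 0.0746), and the other uncalled genes were paralogs. Rpl7a passed the test without WT at room temperature replicate 4 (adjusted p = 0.046), with a stricter filter on low counts (adjusted p = 0.0284) and with mitochondrially encoded genes left out (adjusted p = 0.0169).

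Markers of other cell types moved between the same WT groups. All 12 endothelial markers rose, their sum going from 720 to 897 CPM at room temperature to 1730 to 2380 CPM at 29 °C, and 11 of 12 macrophage markers rose (98.1 to 136 CPM, then 228 to 350 CPM). Of 12 brown adipocyte markers 11 fell, from a sum of 12900 to 15300 CPM to one of 3250 to 4370 CPM. Of 16 lymphocyte markers 9 rose (5.38 to 6.45 CPM, then 12 to 16.3 CPM), and of 8 Schwann cell markers 2 fell (146 to 206 CPM, then 113 to 149 CPM). Their part in the rise of the ribosomal protein genes was not tested. Muscle markers were high in 1 of the 8 libraries. Without the 3 libraries with muscle transcripts 74 members rose and 3 fell, with a median of 0.747.

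In KO mice the same comparison gave 71 members higher at 29 °C and 1 lower, against 24.3% and 21.7% of all genes tested (46.0% in either direction). The median member had a log2 fold change of 0.524, or 1.44-fold, against 0.0394 over all genes. The rise passed 1.5-fold for 31 members, while 29% of all genes were called past 1.5-fold in either direction. In all 72 members had no overlap between the groups, as did 48.1% of all genes. A total of 68 members were called higher in both genotypes, which is 90.7% of those called in WT and 95.8% of those called in KO.

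Apart from Rpl3l, the genes with the largest rises in KO were again of the small subunit. Rps12 measured 141, 120.1, 134 and 128 CPM at room temperature and 317, 258 and 250.4 CPM at 29 °C, with a log2 fold change of 1.07 ± 0.11 (adjusted p = 2.47e-06). Rps20 had 97.9 ± 5.86 CPM at room temperature (SD, n = 4) and 226, 189 and 182 CPM at 29 °C, and its log2 fold change was 1.03 ± 0.10 (adjusted p = 2.66e-06). Rps3a1, at the 40S platform, had 223, 203, 232 and 221 CPM and then 460.2, 429 and 413 CPM (log2 fold change 0.98 ± 0.11, adjusted p = 6.33e-06). None of these 3 genes had overlapping groups. In WT Rps3a1 had 232 ± 15.8 and 442 ± 72.5 CPM (SD, n = 4 and 4) and a log2 fold change of 0.93.

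Rps6 measured 224, 213, 212 and 224 CPM in KO at room temperature and 444, 379 and 392 CPM at 29 °C, a log2 fold change of 0.89 ± 0.084 (adjusted p = 1.55e-06). Rplp0 rose by 0.64 on the log2 scale and Rplp1 by 0.62. Their stalk partner did not pass the test: Rplp2 measured 328, 296, 315 and 291 CPM and then 337, 330.4 and 298 CPM, and the groups overlapped (0.066 ± 0.14, adjusted p = 0.72). The 7 genes that rose past the threshold in WT alone were Rpl38, Rpl39, Rpl41, Rplp2, Rps19, Rps23 and Rps28. Those that rose past it in KO alone were Rpl7a, Rps2 and Rps27l. Rpl15 and Rpl23a, which fell in WT, did not pass the test in KO (adjusted p = 0.243 and 0.723). The rise of Rps2 in KO (0.28 ± 0.098, adjusted p = 0.025) missed the threshold without any 1 of 5 KO libraries (0.0535 to 0.106) and in 5 other fits (0.0501 to 0.176), among them those with no filter on low counts, with only the KO libraries and without the 3 libraries with muscle transcripts. Rps19 and Rps28 passed the test in KO too without WT at 29 °C replicate 3 (adjusted p = 0.0484 and 0.0476), as did Rpl39 without the 3 libraries with muscle transcripts (0.0265). Being called in 1 genotype does not show that the genotypes differ, and that difference is tested further on.

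Endothelial markers rose for 6 of 12 genes in this KO comparison (a sum of 599 to 778 CPM, then 767 to 1050 CPM), macrophage markers for 11 of 12 (87.5 to 185 CPM, then 391 to 577 CPM) and lymphocyte markers for all 16 (5.84 to 12 CPM, then 39.5 to 56.5 CPM). Of the brown adipocyte markers 3 fell and 1 rose (8790 to 15400 CPM, then 9590 to 12400 CPM), and of the Schwann cell markers 3 rose. Their part in the result was not tested. Without the 3 libraries with muscle transcripts, which leaves 1 KO library at 29 °C whose spread is taken to be like that of the other groups, 67 members rose and 1 fell, with 26.3% of all genes called. Without KO at 29 °C replicate 1 the number called was 62 (40.4% of all genes).

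**Figure D2:**
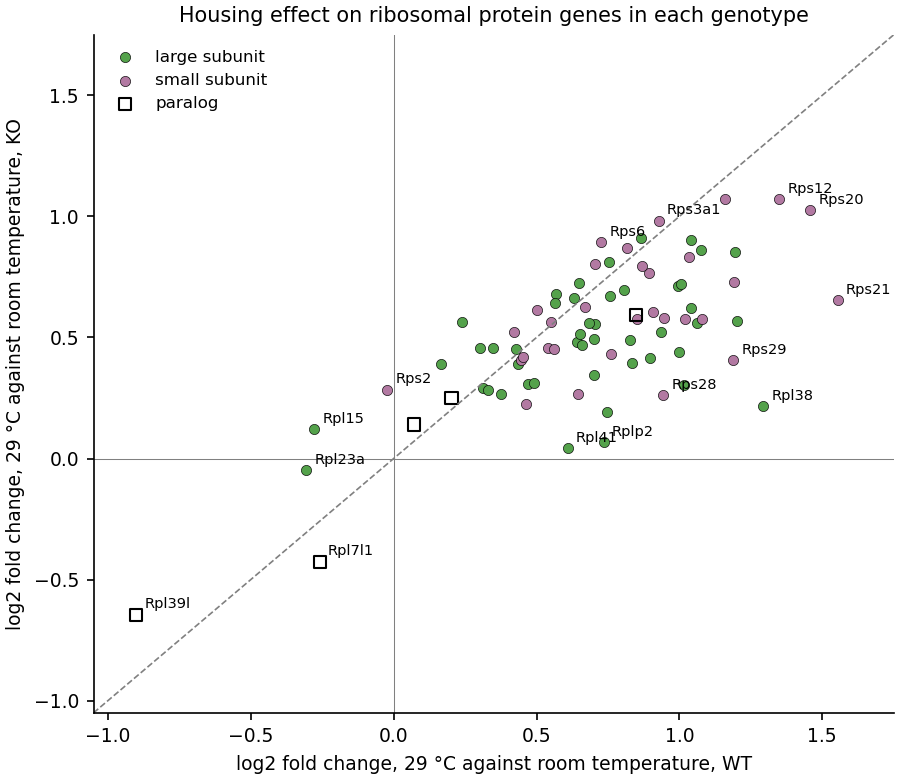
Each point is 1 ribosomal protein gene, placed by its log2 fold change of 29 °C against room temperature in WT (x axis) and in KO (y axis), with large-subunit genes in green, small-subunit genes in purple and paralogs as open squares; the dashed line marks equal change, and Rpl3l, at 2.97 and 3.71, lies beyond the axes. Most points lie right of and above 0, many of them under the dashed line, with Rpl38, Rps21, Rps29 and Rps28 far under it and Rpl15, Rpl23a and Rps2 above it.

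Knockout and control mice were then compared at 29 °C, where the tissue has little heat to make. Of the 83 members 34 were lower in KO and 5 were higher, against 20.0% and 24.7% of all genes tested. The share of members called in either direction, 39 of 83, stood near the background of 44.7%. The 2 groups did not overlap for 34 members, and did not for 43.1% of all genes. The median member had a log2 fold change of -0.167 (0.89-fold), against 0.0427 over all genes. The falls passed 1.5-fold for 8 members and none of the rises did, while 27.7% of all genes were called past 1.5-fold in either direction. All 34 members lower in KO had risen with warmth in WT, and 27 of them had also risen in KO. The WT libraries at 29 °C serve in both the first and the present comparison, so a high WT level enters both.

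Rpl38 had the largest fall. It measured 93, 66.1 and 75 CPM in KO at 29 °C, all of them under the 162, 132, 197 and 168 CPM of the WT libraries and close to the 71.8, 65.5, 67.7 and 64 CPM of KO at room temperature. The log2 fold change was -1.08 ± 0.14 (2.11-fold lower, adjusted p = 1.82e-05). Rps21 measured 130.2, 95.5 and 97.4 CPM in KO at 29 °C, again under every WT library (199, 182, 273 and 214 CPM). Its log2 fold change was -1.01 ± 0.13 (adjusted p = 1.89e-05). Rps29 measured 154, 115 and 119.5 CPM in KO and 253, 209, 271 and 233 CPM in WT. The groups lay apart, with a log2 fold change of -0.90 ± 0.12 (adjusted p = 1.69e-05). Rps28, a small protein near the mRNA exit, measured 96.3, 78.5 and 82.2 CPM in KO and 137, 120.2, 169 and 142 CPM in WT (log2 fold change -0.73 ± 0.12, adjusted p = 0.000144).

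In the stalk, Rplp2 measured 337, 330.4 and 298 CPM in KO and 491, 433, 713 and 629.5 CPM in WT at 29 °C, a log2 fold change of -0.82 ± 0.14 (adjusted p = 0.00021). Its partner Rplp1 measured 252, 209.6 and 208 CPM in KO and 308, 269, 392 and 322 CPM in WT (-0.53 ± 0.12, adjusted p = 0.00179). In both genes the highest KO library was below the lowest WT library. The stalk base Rplp0 had 531 ± 59.8 CPM in KO and 519 ± 16.3 CPM in WT (SD, n = 3 and 4), and its log2 fold change of 0.033 ± 0.085 did not pass the test (adjusted p = 0.773). Rpl36, a large-subunit surface protein, measured 148, 134 and 124 CPM in KO and 233, 191, 258 and 205 CPM in WT, without overlap (-0.71 ± 0.11, adjusted p = 6.76e-05). Rpl39, a very short protein in the wall of the exit tunnel, measured 115, 82.8 and 82.3 CPM in KO and 128, 119, 140.1 and 130.2 CPM in WT (-0.47 ± 0.11, adjusted p = 0.00307); KO replicate 1, at the top of its group, came within 4 CPM of the lowest WT library.

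Other members of known role were lower in KO as well. Rps20 and Rps12, which led the response to warmth, had log2 fold changes of -0.49 and -0.42 (adjusted p = 0.00141 and 0.00563). Rps27a had a log2 fold change of -0.33 ± 0.10, Rpl13a of -0.38 ± 0.13, Rps4x of -0.33 ± 0.10, Rps27 of -0.30 ± 0.11, Rps19 of -0.29 ± 0.11 and Rpl22 of -0.27 ± 0.098 (adjusted p from 0.0149 to 0.0388). Rpl5 was lower as well (-0.23 ± 0.087, adjusted p = 0.0407), while its 5S partner Rpl11, with -0.042 ± 0.083, did not pass the test (adjusted p = 0.705). Of the members lower in KO, only those picked by the naming rule were followed 1 by 1 through other fits. The fit without the 3 libraries with muscle transcripts leaves 1 KO library at 29 °C. In that fit Rpl39, Rps12, Rps27a, Rpl13a, Rps4x, Rps27, Rps19, Rpl22 and Rpl5 missed the threshold, with log2 fold changes from -0.38 to -0.23. The last 7 also missed it without KO replicate 2 or without KO replicate 3 alone, and those other than Rps27a without WT replicate 3 (adjusted p from 0.0508 to 0.173). Rpl22, Rps27 and Rpl5 missed it without WT replicate 4 (0.0636 to 0.0698), and Rpl5 without any single WT library at room temperature (0.0502 to 0.0527). Rps4x, Rps27, Rps19, Rpl22 and Rpl5 missed it when only the 7 libraries at 29 °C were fitted (0.0576 to 0.0912). The last 4 also missed it with the replicate number as a block (0.0535 to 0.0805). Rps3, Rps6, Rpsa, Rpl3, Rpl4 and Rpl7 did not pass the test, with log2 fold changes from -0.11 to 0.15.

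The 5 members higher in KO at 29 °C were Rpl15, Rps2, Rpl10, Rpl23a and Rpl7a. Rpl15 measured 273, 229 and 218 CPM in KO and 173, 169, 169 and 182 CPM in WT, with a log2 fold change of 0.47 ± 0.083 (adjusted p = 0.000292). No KO library fell within the WT range. Rps2, at the mRNA entry of the 40S subunit, measured 1034, 1038 and 823 CPM in KO and 779, 796, 790.0 and 718 CPM in WT (0.32 ± 0.097, adjusted p = 0.013). Rpl10, which joins the 60S subunit last and makes it competent for translation, measured 440.0, 389 and 356 CPM in KO and 316, 332, 306 and 319 CPM in WT (0.31 ± 0.085, adjusted p = 0.00707). Rpl23a had 446, 392 and 354 CPM against 319.8, 318, 326 and 347 CPM (0.28 ± 0.096, adjusted p = 0.0257), and Rpl7a had 429.8, 392 and 375 CPM against 337, 336, 320.3 and 339 CPM (0.26 ± 0.085, adjusted p = 0.02). The groups did not overlap in any of the 5. Only Rpl15 stayed past the threshold with no filter on low counts, where the adjusted p of the other 4 ran from 0.0508 to 0.132, and when only the 7 libraries at 29 °C were fitted, where it ran from 0.088 to 0.136. The same 4 missed it without KO replicate 1 (0.0542 to 0.156), and without the 3 libraries with muscle transcripts only Rpl15 and Rpl10 passed. Rpl7a and Rpl23a also missed it without KO at room temperature replicate 3 (0.0759 and 0.0832), Rps2 and Rpl23a without KO at 29 °C replicate 2 (0.066 and 0.0525), and Rpl23a without WT at 29 °C replicate 1 or 2 (0.0524 and 0.0587).

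**Figure D3:**
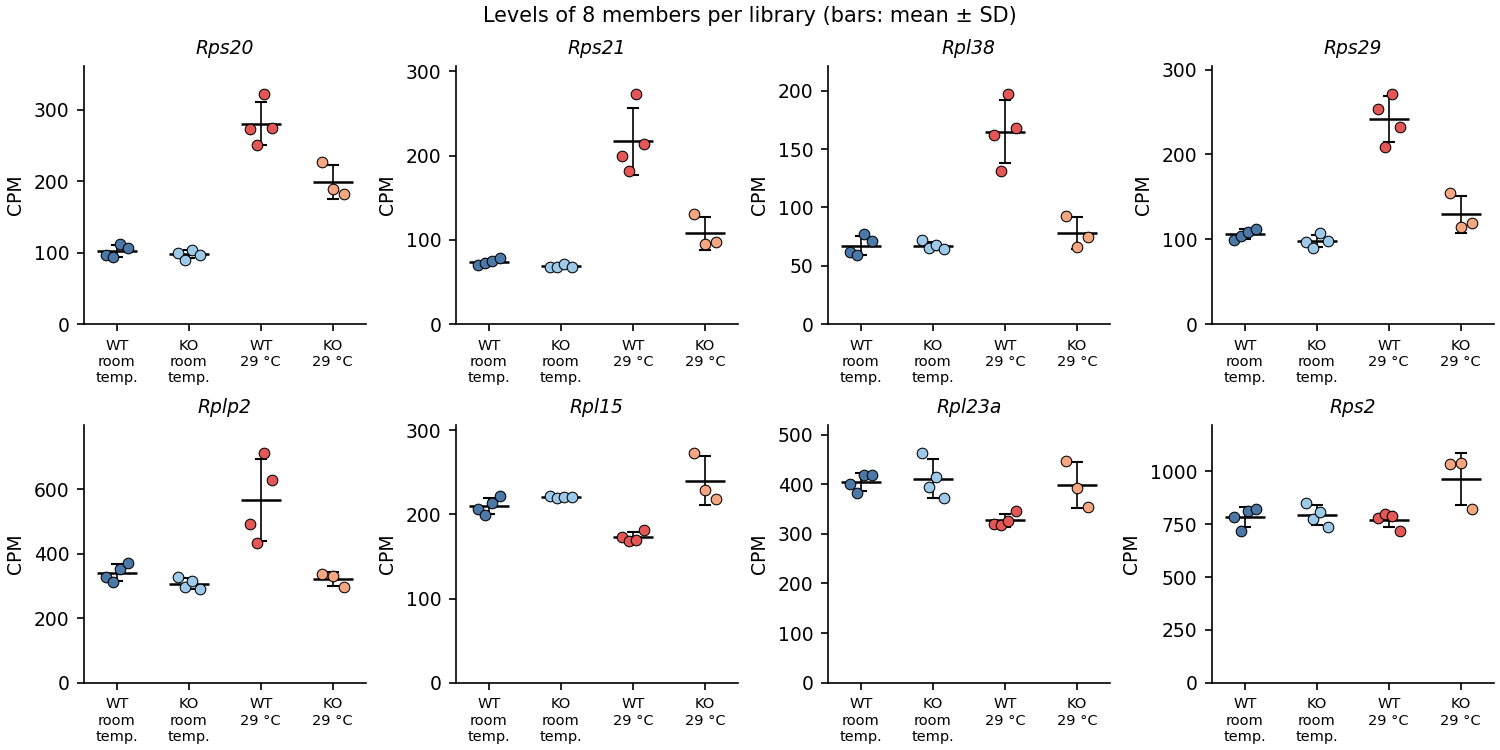
Levels of 8 members are plotted in CPM per library (points; bars are the mean ± SD of each group, n = 4, 4, 4 and 3), each panel with its own axis from 0. Rps20, Rps21, Rpl38, Rps29 and Rplp2 are highest in the 4 WT libraries at 29 °C, with KO at 29 °C below them, while Rpl15, Rpl23a and Rps2 are higher in KO than in WT at 29 °C.

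Several cell type markers differed between these groups too. All 12 endothelial markers were lower in KO at 29 °C (a sum of 767 to 1050 CPM, against 1730 to 2380 CPM in WT), 15 of 16 lymphocyte markers were higher (39.5 to 56.5 CPM against 12 to 16.3 CPM), and 8 of 12 brown adipocyte markers were higher and 1 lower (9590 to 12400 CPM against 3250 to 4370 CPM). Of 12 macrophage markers 4 were higher and 1 lower, and of 8 Schwann cell markers 3 were higher. Their part in the differences of the ribosomal protein genes was not tested. Of the 3 libraries with muscle transcripts, 2 are KO libraries, and without all 3 the calls were 14 lower and 2 higher, with a median of -0.135 and 27% of all genes called. Without KO at 29 °C replicate 1, the library highest for most members, the median went from -0.167 to -0.28.

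Whether warmth acted differently in the 2 genotypes was tested as the interaction, the housing effect in KO minus that in WT. It was negative for 19 members and positive for 2, against 12.3% and 16.0% of all genes tested (28.3% in either direction), with a median of -0.141 against 0.00983 over all genes. All 19 were among the 34 genes lower in KO at 29 °C. The libraries at 29 °C enter both tests, so this overlap is not a separate result. For Rpl38 warmth gave a log2 fold change of 1.29 in WT and 0.22 in KO, and the interaction was -1.08 ± 0.19 (adjusted p = 0.000623). For Rps21 the pair was 1.55 and 0.65 (interaction -0.90 ± 0.18, adjusted p = 0.00147), and for Rps29 it was 1.19 and 0.41 (-0.78 ± 0.15, adjusted p = 0.00159). In all 3 the effect of warmth was smaller in KO. Rpl36 (-0.71 ± 0.14, adjusted p = 0.00185), Rps28 (-0.68 ± 0.16, adjusted p = 0.00515), Rplp2 (-0.67 ± 0.19, adjusted p = 0.0139), Rpl39 (-0.55 ± 0.15, adjusted p = 0.0129) and Rps20 (-0.43 ± 0.14, adjusted p = 0.0339) were negative as well. Cell type markers moved in the same contrast: the interaction was negative for 10 of 12 endothelial markers (median -0.907) and positive for 7 of 12 brown adipocyte (median 1.42), 8 of 16 lymphocyte (median 1.51) and 3 of 8 Schwann cell markers. Of 12 macrophage markers 1 was positive and 1 negative, and no muscle marker was called. Their part in the result was not tested.

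The 2 positive interactions were in Rpl15 (0.40 ± 0.11, adjusted p = 0.0153), which fell with warmth in WT and measured 221 ± 1.36 and 240.2 ± 29.3 CPM in KO at room temperature and 29 °C (SD, n = 4 and 3), and in Rpl10 (0.32 ± 0.12, adjusted p = 0.0468). Rpl10 rose with warmth in both genotypes, having 269.5 ± 6.46 and then 318 ± 10.7 CPM in WT (SD, n = 4 and 4) and 267 ± 16.1 and then 395 ± 42.2 CPM in KO (SD, n = 4 and 3). The Rpl10 interaction missed the threshold when any 1 of 14 libraries was left out (adjusted p from 0.0528 to 0.145; it passed without KO at 29 °C replicate 3) and in 6 other fits that kept all libraries (0.0506 to 0.174). The Rps20 interaction missed it without any 1 of 7 libraries (0.0522 to 0.0882), and the Rpl15 interaction without KO at 29 °C replicate 1 (0.0515) or with no filter on low counts (0.0623). For Rps12, Rps3a1, Rps6, Rplp0 and Rps3 the interaction did not pass the test (log2 values from -0.28 to 0.17, adjusted p from 0.179 to 0.823), which does not show that the responses were equal. Without the 3 libraries with muscle transcripts 6 members were negative and 2 positive, with 18.6% of all genes called, and Rpl39 and Rps20 missed the threshold (adjusted p = 0.126 and 0.171). The number of members called was 12 without WT at room temperature replicate 2 and also 12 without KO at 29 °C replicate 2, with 24.2% and 21.3% of all genes called. The median went from -0.141 to -0.219 without KO at 29 °C replicate 1 and to -0.0725 without KO at 29 °C replicate 3.

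Members differed by size. Coding length, which the choice of genes did not use, ran from 75 bases in Rpl41 to 1257 in Rpl4, and the 82 members with a gene model were divided into 3 classes at 399 and 576 bases. Among the 28 shortest, 18 were lower in KO at 29 °C and none higher, with a median log2 fold change of -0.42. Among the 27 of middle length 11 were lower and 1 higher (median -0.166), and among the 27 longest 5 were lower and 4 higher (median -0.0255). Other genes, divided at the same lengths, had medians of -0.0174 (622 genes), 0.0694 (865) and 0.0479 (11649). Their longest class had no upper limit, while the members ended at 1257 bases, so the ranges of that class differ. Of those genes 23% were lower and 23% higher in the shortest class, 17.8% and 26.1% in the middle class, and 20.5% and 25.8% in the longest. Across the 82 members Spearman's rho between coding length and the log2 fold change of KO against WT at 29 °C was 0.617. Across 13136 other genes, of any length, it was -0.102. These points share libraries and reads of related genes, so the value describes the set and carries no test.

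The same ordering by length was present in the housing effect of WT, with medians of 0.939, 0.684 and 0.566 from the shortest to the longest class, but the medians in KO were 0.481, 0.561 and 0.563. For the interaction they were -0.389, -0.151 and 0.0163, with 14, 5 and 0 members called negative. At room temperature the genotype effect had medians of -0.0588, -0.0153 and -0.0147. Removing a per-library trend on coding length, an alternative chosen after the data were seen, left 36 members lower and 4 higher in KO at 29 °C. It left 25 negative and 1 positive in the interaction. Of all genes 45.6% and 30.2% were called. The trend was fitted over genes of all lengths, most of them in the longest class, so it may not remove an effect limited to short transcripts. Library preparation and RNA integrity are not given, and an effect of transcript size on capture was not tested.

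**Figure D4:**
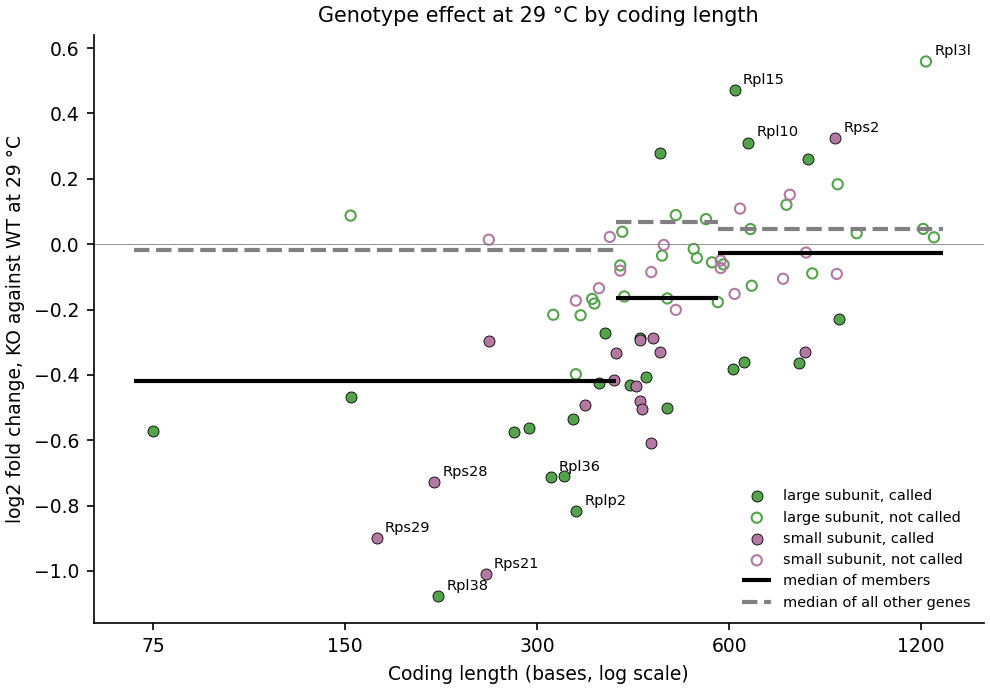
The log2 fold change of KO against WT at 29 °C is plotted against coding length in bases (log axis) for the 82 members with a gene model, filled where called at an adjusted p under 0.05. Black lines mark the median of members and grey dashed lines the median of all other genes in each length class: members go from -0.42 in the shortest class to -0.0255 in the longest, while other genes stay between -0.0174 and 0.0694. The longest class of other genes had no upper limit of length.

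The members with and without a pyrimidine run at a RefSeq start were counted side by side, with no test. Warmth in WT raised 29 and lowered 1 of the 33 members with a run of at least 8 (median 0.726), and raised 27 and lowered 1 of the 29 without (median 0.67). KO at 29 °C was lower for 13 and higher for 2 in each class, with medians of -0.173 and -0.177. Rps21, whose longest run was 7 bases, and Rpl38, with 10, both stood among the largest rises in WT and the largest falls in KO.

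At room temperature, where brown fat works against mild cold, the comparison of KO with WT called no member in either direction, against 0.0530% of all genes higher and 0.186% lower (0.239% in either direction). DESeq2 and limma-voom called none as well. A single member, the paralog Rpl7l1, had an unadjusted p under 0.05 by edgeR's quasi-likelihood test (adjusted p = 0.195). So did 1678 of the 15083 genes tested. The median member had a log2 fold change of -0.0253, against 0.00948 over all genes, and the 77 core subunits ran from -0.192 to 0.086 with a median SE of 0.0908. In all, 3 members of 83 had groups that did not overlap (8.21% of all genes): Rpl4, Rpl5 and Rpl7l1.

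Among single members, Rplp0 measured 352, 337, 359.6 and 355 CPM in WT and 361, 328, 344 and 329.7 CPM in KO, and the ranges overlapped (log2 fold change -0.042 ± 0.079, adjusted p = 0.893). Rps6 measured 222, 206, 224 and 230.1 CPM in WT and 224, 213, 212 and 224 CPM in KO, again overlapping (-0.015 ± 0.078, adjusted p = 0.973). Rpl5 measured 180.2, 178, 193 and 190.2 CPM in WT and 175, 156, 174 and 178 CPM in KO (-0.12 ± 0.08, adjusted p = 0.617), every KO library being below every WT library. Rpl38 and Rps21, which differed most at 29 °C, had log2 fold changes of -0.00097 ± 0.13 and -0.11 ± 0.12 here. Of the cell type markers, 1 of 12 endothelial genes was lower in KO and none of the others was called. A p that misses the threshold does not show that the levels were the same.

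Of the 6 paralogs 2 rose with warmth in WT and 1 fell. Levels of a paralog and its parent were compared per kilobase of coding sequence. Transcript length was not used, so these percentages do not give a ratio of transcript numbers. Rpl7l1, a relative of Rpl7 that binds the 60S precursor during assembly, measured 74.1, 75.2, 70.1 and 76.1 CPM in WT and 91.4, 88.4, 90.8 and 90.1 CPM in KO at room temperature, and 52.2, 62.8, 62.3 and 69.7 and 63, 67.4 and 71.1 CPM at 29 °C. The KO libraries at room temperature stood above the other 11. It fell with warmth in WT (log2 fold change -0.26 ± 0.083, adjusted p = 0.0113) and in KO (-0.43 ± 0.09, adjusted p = 0.00125). The difference of KO from WT at room temperature was 0.29 ± 0.083 (adjusted p = 0.195). The fall in WT missed the threshold with mitochondrially encoded genes left out (adjusted p = 0.0512) and with the coding-length trend removed (0.166). Rpl7 itself rose in both genotypes (0.76 and 0.67), and per coding kilobase Rpl7l1 stood at 33.8% and 41.4% of Rpl7 in WT and KO at room temperature and at 16.7% and 19.4% at 29 °C.

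Rps27l, a p53-responsive relative of Rps27, measured 77.4, 84.2, 93.7 and 82.4 CPM in WT and 87.3, 80.2, 81.5 and 81.2 CPM in KO at room temperature, and 97.6, 97.8, 99.7 and 93.3 and 115, 91.1 and 88.1 CPM at 29 °C. It rose in KO (0.25 ± 0.095, adjusted p = 0.0422) and just missed the threshold in WT (0.20 ± 0.088, adjusted p = 0.0518). Both calls changed under other settings: Rps27l passed in WT in 4 of them (adjusted p from 0.0121 to 0.047) and without any 1 of 4 libraries, and missed the threshold in KO in 5 of them (0.0561 to 0.195) and without any 1 of 6 libraries. Rps27 had a log2 fold change of 0.89 and 0.77 with warmth. Per coding kilobase Rps27l stood at 133% and 146% of Rps27 in WT and KO at room temperature, and at 82.3% and 102% at 29 °C. Both have 252 coding bases, but the gene models give transcripts of 345 bases for Rps27 and 499 for Rps27l. Which of the pair is more abundant depends on the length used and is not settled here.

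Rpl22l1, whose product can replace Rpl22 in the ribosome, rose with warmth as its parent did. It measured 18.1, 15.7, 20.9 and 16.8 CPM in WT at room temperature and 26.3, 32.5, 36.9 and 32.9 CPM at 29 °C. Its log2 fold change with warmth was 0.85 ± 0.13 in WT (adjusted p = 2.54e-05) and 0.59 ± 0.14 in KO (adjusted p = 0.00254), and it stood at 23.9% to 28.4% of Rpl22 per coding kilobase in the 4 groups. Rps4l, an intronless relative of Rps4x, had 23 ± 2.25 and 26 ± 3.82 CPM at room temperature and 24.1 ± 2.47 and 28.6 ± 2.71 CPM at 29 °C in WT and KO (SD, n = 4, 4, 4 and 3), and passed no test. Rpl39l, best known from the testis, was at 0.208 to 3.5 CPM in every library and stood at 0.806% to 2.53% of Rpl39. It passed no test with all libraries. Its log2 fold change with warmth in WT went from -0.90 ± 0.70 (adjusted p = 0.266) to -2.00 without WT at 29 °C replicate 3, where it passed (adjusted p = 0.0151).

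Rpl3l, the striated muscle form of Rpl3, measured 0.29, 0.301, 0.294 and 0.303 CPM in WT and 0.345, 0.464, 0.161 and 0.0813 CPM in KO at room temperature. At 29 °C it measured 0.451, 7.91, 0.45 and 0.525 CPM in WT and 0.309, 1.95 and 8.22 CPM in KO. The 3 high values are those of the 3 libraries with muscle transcripts. The fit called it higher with warmth in WT (2.97 ± 1.21, adjusted p = 0.0444) and KO (3.71 ± 1.27, adjusted p = 0.0307). Without those 3 libraries the values were 0.65 (adjusted p = 0.209) and 0.16 (adjusted p = 0.875), and with no filter on low counts the calls were lost too (0.0826 and 0.0626). Its parent Rpl3 rose by 0.35 in WT and 0.46 in KO on the log2 scale.

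**Figure D5:**
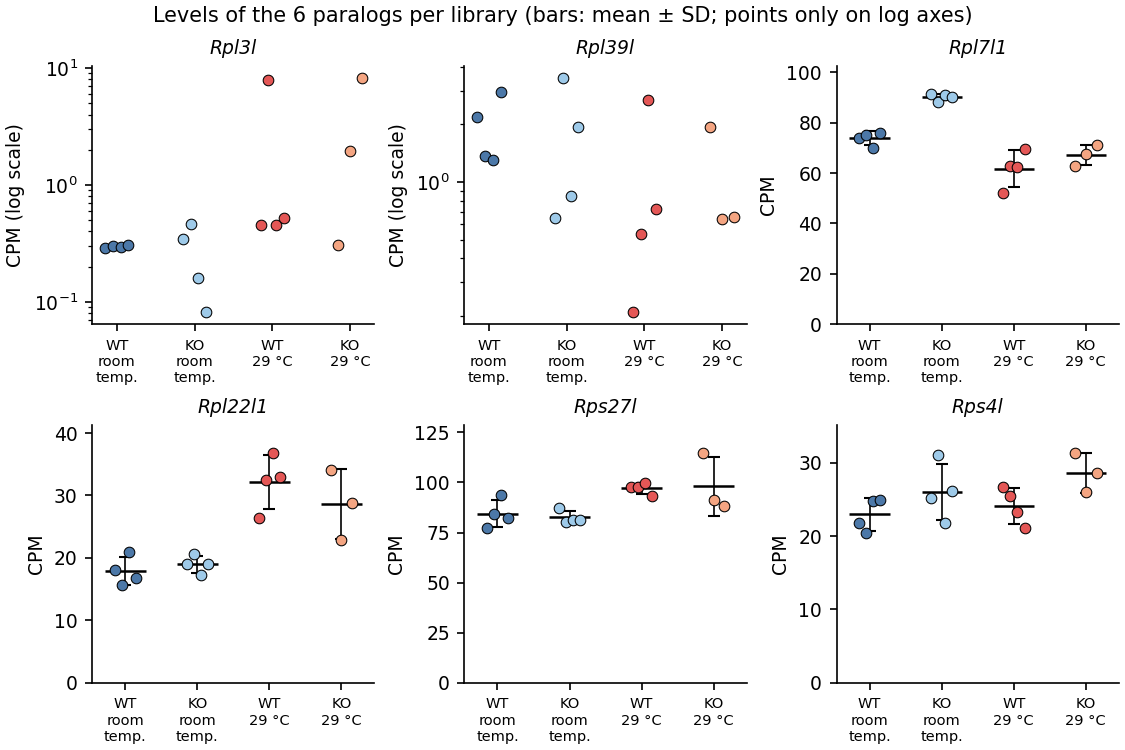
Levels of the 6 paralogs are plotted in CPM per library; Rpl3l and Rpl39l are on log axes without error bars, and the others start at 0 with bars for the mean ± SD (n = 4, 4, 4 and 3). Rpl7l1 is highest in KO at room temperature and lower at 29 °C, Rpl22l1 is higher at 29 °C, and Rpl3l is high in 1 WT and 2 KO libraries at 29 °C.

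Other genes of the ribosome and of translation were read from lists chosen with earlier results of these data known. Of the ribosomal proteins whose symbols the rule did not match, Rack1, Fau and Rpl36al are described. Rack1, the 40S scaffold for kinases, rose in both genotypes by 0.88 and 0.91 on the log2 scale, and Fau, made as a fusion with a ubiquitin-like protein, by 0.94 and 0.62. Rpl36al was lower in KO at 29 °C (-0.39 ± 0.084, adjusted p = 0.00131), as was Fau (-0.36 ± 0.12, adjusted p = 0.0208). With warmth Rpl36al rose in WT (0.50 ± 0.078, adjusted p = 3.10e-05), and in KO it had a log2 fold change of 0.079 ± 0.084 (adjusted p = 0.46).

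The 77 mitochondrial ribosomal protein genes, whose products build the ribosome of the mitochondrion, had medians of the opposite sign in the 4 comparisons other than room temperature. In WT 56 fell with warmth and 7 rose (median -0.458), and in KO 47 fell and 2 rose (median -0.335). At 29 °C 36 were higher and 12 lower in KO than in WT (median 0.175), and the interaction was positive for 28 and negative for 3 (median 0.25). At room temperature none was called between the genotypes. Thus at 29 °C the medians of the cytosolic and the mitochondrial genes lay on opposite sides of the 0.0427 of all genes.

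Translation factors were read next. Of 37 initiation factor genes 20 fell with warmth in WT and 4 rose (median -0.251), and at 29 °C 22 were higher and 1 lower in KO (median 0.295). Eif4g1, the scaffold that joins the cap complex to the 40S subunit, had a log2 fold change of -1.39 with warmth in WT and was higher in KO at 29 °C by 0.76. Eif5a, which helps ribosomes through stalling sequences, had values of -0.97 and 0.62, and Eif2b1, a subunit of the exchange factor of eIF2, -0.88 and 0.87. In KO warmth raised 9 of the 37 and lowered 10 (median -0.0117). Of 8 elongation factor genes 2 rose and 2 fell in WT: Eef1b2 (0.68) and Eef1d (0.63), exchange factors of eEF1A, rose, while Eef2, the translocase (-0.30), and the methyltransferase Eef1akmt1 (-0.32) fell.

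Of 19 other TOP mRNAs and hosts of small nucleolar RNAs, 7 rose and 3 fell with warmth in WT (median 0.119), and 11 rose and 1 fell in KO (median 0.318). Snhg12, Snhg8 and Snhg1, hosts of small nucleolar RNAs, rose in WT by 1.48, 1.33 and 0.74 on the log2 scale. At 29 °C 6 of the 19 were higher in KO and 1, Snhg8, was lower (median 0.184). The core ribosomal proteins had a median of -0.182 in that comparison.

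Regulators of TOP mRNAs and of ribosomal protein supply moved in mixed directions. Of 20 genes of mTORC1 and TOP mRNA control, 12 fell and 4 rose with warmth in WT (median -0.545), and at 29 °C 10 were higher and 7 lower in KO. Mtor, the kinase itself, had log2 fold changes with warmth of -1.98 in WT and -1.33 in KO, and was higher in KO at 29 °C by 0.92. For the translation repressor Eif4ebp2 they were -1.54 and -1.66. Rheb, the activator of mTORC1, was higher in KO at 29 °C by 0.88. In the Myc network, whose factors drive ribosomal protein genes in growing cells, Myc rose with warmth by 1.33 ± 0.21 in WT (adjusted p = 3.39e-05) and 2.31 ± 0.22 in KO (adjusted p = 1.90e-06), and was higher in KO at 29 °C by 0.73 ± 0.21 (adjusted p = 0.00986). Mycn rose in WT by 3.09 ± 0.46 (adjusted p = 1.90e-05). Among 8 genes of this network 3 rose and 4 fell with warmth in WT, 2 rose in KO, and 2 were higher and 1 lower in KO at 29 °C. Mxd1, a Myc antagonist, was the only gene of these translation lists called between the genotypes at room temperature (-0.62 ± 0.11, adjusted p = 0.0217).

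Of 12 chaperones and import receptors of ribosomal proteins, 7 fell and 3 rose with warmth in WT (median -0.342), and 7 were higher and 1 lower in KO at 29 °C (median 0.313). The import receptor Tnpo1 had a log2 fold change of -0.70 with warmth in WT and was higher in KO at 29 °C by 0.61. Nufip1, a partner of the assembly machinery of small nucleolar RNPs, rose in WT by 0.80. These lists describe transcripts of the same libraries and give no measure of ribosome number or of translation.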

How the data were processed

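Paired reads of 150 bases were sequenced, per the labels' protocols. The submitters' processing notes name STAR 2.7.10a, RSEM 1.2.28, DESeq2 (listed as 1.3.40) and the build mm10, without their roles. The values used are the expected counts that the authors deposited, 1 per gene symbol and library (7.26% with decimals), rounded here to whole counts. All 15 columns matched a sample by name and 0 were left unused. RSEM divides reads shared by near-identical genes, which affects ribosomal proteins and their pseudogenes; total counts give no interval on that split. Sources used here do not name the annotation behind the counts.

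Genes were kept with edgeR 4.0.16 (R 4.3.3, limma 3.58.1) filterByExpr at a minimum count of 10, scaled by TMM, and fitted with 1 mean per group by the robust quasi-likelihood method (11 residual degrees of freedom). The 4 pairwise comparisons and the interaction were adjusted by the Benjamini-Hochberg method over all 15083 genes. The fit was tested on simulated data. Gene positions and coding lengths came from GENCODE M21 (GRCm38) and start sequences from RefSeq (GRCm38.p6). CPM with SD are TMM-scaled; counts and medians over members carry no p.

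Members, lists and tests were chosen with earlier results of these data known. Genes named are, per comparison, up to 5 called members with the largest rise and fall (mean of at least 1 CPM), the 3 highest and 3 lowest members, fixed members and paralog pairs (38 in all), and up to 4 called genes per list; some of these are not reported here. Rpl41, Rpl35a, Rps10, Rps23 and the members of small counts were named after their values were seen. Alternatives were RLE size factors, a fit with a replicate block, DESeq2 1.42.0, no filter or a stricter one (1 CPM in 4 libraries), limma-voom, fits of only the groups compared, an adjusted p under 0.01, a 1.5-fold limit, mitochondrially encoded genes left out, each library left out in turn, and the libraries with muscle transcripts or KO at room temperature replicates 2 and 4 left out; the coding-length trend was added after seeing the data.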

Additional observations from a re-analysis of the deposited data

Results flagged for a closer look

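In 5 of 117 groups of 4 libraries examined, 1 library stood apart from the other 3 by more than Dixon's limit; chance alone gives about 1 in 20 groups. Rpl10 measured 243 CPM in KO at room temperature replicate 4, with the nearest library at 274 CPM. Rpl5 measured 156 CPM in KO at room temperature replicate 2, with the nearest at 174 CPM. Rpl7a measured 337 CPM in KO at room temperature replicate 1, with the nearest at 295 CPM. Rps21 measured 71.2 CPM in KO at room temperature replicate 3, with the nearest at 68 CPM. Rpl3l measured 7.9 CPM in WT at 29 °C replicate 2, which is 1 of the 3 libraries with muscle transcripts, with the nearest at 0.525 CPM.

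The effect of warm housing differed between the genotypes, by the interaction test of edgeR, in 10 of the members named. The naming rule picked members partly by this test, so that count is not a separate result. In all 21 of the 83 members were called, against 28.3% of all genes tested. The difference of log2 fold changes (KO minus WT) was negative in 8: Rpl38 at -1.08, Rps21 at -0.901, Rps29 at -0.782, Rpl36 at -0.712, Rps28 at -0.682, Rplp2 at -0.668, Rpl39 at -0.555 and Rps20 at -0.431. It was positive in Rpl15 at 0.402 and Rpl10 at 0.322. Rpl39 and Rps20 missed the threshold without the 3 libraries with muscle transcripts, at -0.36 each (adjusted p = 0.126 and 0.171).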

How the results depend on the processing

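Among the 38 members picked by the naming rule, no called value changed sign under any alternative run. Signs of the other members were not checked. The number of members called was within 1.5 times that reported except as follows. With a 1.5-fold limit the calls were 8 in KO against WT at 29 °C, 31 for warmth in KO and 7 in the interaction. Of all genes 27.7%, 29% and 21.6% were called at that limit. With an adjusted p under 0.01 the interaction kept a count of 7, with 15.3% of all genes called. Without the 3 libraries with muscle transcripts the counts were 16 in KO against WT at 29 °C and 8 in the interaction. That fit leaves 1 KO library at 29 °C. Whether the lower counts came from the smaller number of libraries or from muscle content was not tested. Leaving out 1 library at a time gave 0 calls in KO against WT at room temperature, 29 to 41 at 29 °C, 77 to 79 for warmth in WT, 62 to 75 for warmth in KO and 12 to 26 in the interaction. In the same order 0.0332% to 0.399%, 35% to 44.7%, 65% to 68.9%, 35.8% to 48.4% and 21.3% to 29.8% of all genes were called. The median log2 fold change of KO against WT at 29 °C ran from -0.28 to -0.114, being lowest without KO replicate 1. The share of counts without mitochondrially encoded genes moved to 1.80% (WT) and 1.73% (KO) at room temperature and to 4.06% and 3.15% at 29 °C, and adding the ribosomal proteins outside the naming rule moved the share in WT at room temperature to 1.39%. With no filter on low counts, or with only the libraries compared, 1 member in place of 5 was higher in KO at 29 °C.

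With the replicate number as a block the calls were 0 in KO against WT at room temperature, 35 at 29 °C, 77 for warmth in WT, 70 for warmth in KO and 18 in the interaction. Of all genes 0.166%, 42%, 68.1%, 44.4% and 26.8% were called, in the same order. Correlations of same-numbered libraries, after removal of the group means, ran from -0.276 to 0.33. Differently numbered libraries were not compared, so these values do not decide whether the numbers pair the samples.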

Other observations

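Rpl30, a large-subunit protein known in yeast to bind its own transcript, was picked out after its values were seen. At room temperature it measured 86.2, 141, 154 and 99.5 CPM in WT and 88.7, 84.9, 145 and 144 CPM in KO, so that 4 libraries, 2 of each genotype, lay between 84.9 and 99.5 CPM and the other 4 between 141 and 154 CPM. At 29 °C it measured 259, 259.5, 307 and 275 CPM in WT and 237, 205 and 185 CPM in KO. The level at room temperature did not follow the genotype label.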
